A study of Homo sapiens with 6 samples.

Results

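The BCL2 family genes studied here are 10 genes taken as a named list, out of 20037 protein-coding genes on chromosomes 1 to 22, X and Y. They are 3 pro-survival genes, BCL2, BCL2L1 and MCL1, and 7 pro-death genes, the effectors BAX and BAK1 and the BH3-only genes BID, BBC3, PMAIP1, BCL2L11 and BAD. MYC ChIP-seq peaks at these genes were compared between 2 libraries of MIAPaCa2 cells given conditioned medium of cancer-associated fibroblasts (CM) and 2 libraries of MIAPaCa2 cells given fresh DMEM. MIAPaCa2 is a human pancreatic ductal adenocarcinoma line. All cells had first been held for 48 h without serum, neither medium contained serum, and fixation followed 3 h after the change of medium. The fibroblasts are described as primary, and the question was where MYC sits on DNA after each medium. The labels do not say whether libraries of 1 condition came from separate cultures, so the spread between them may be technical. Peak lists hold binding and not RNA, so the labelled cell type could not be set against marker genes.

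Proteins of the BCL2 family decide whether the outer mitochondrial membrane stays closed. BAX and BAK1 can form pores in that membrane and let cytochrome c out, which starts caspase activation. BCL2, BCL-XL (from BCL2L1) and MCL1 hold BAX and BAK1 back, and BH3-only proteins are stress sensors that bind the pro-survival proteins, and in part activate BAX and BAK1. MYC, a transcription factor that binds DNA as a dimer with MAX, is known both as a driver of growth and as a factor that makes cells short of growth factors prone to apoptosis. The DNA letters that MYC and MAX prefer are CACGTG, the E-box.

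A gene was counted as bound in a library when a peak of that library's list lay within 1000 bp of either outer annotated end, and in a condition when this held in both of its libraries. Peak scores are those the authors deposited. They are given as percentiles, the position of a peak among all peaks of the same list, where 100 is the highest score. The lists held 15304 and 12797 peaks in the CM libraries and 4657 and 7652 peaks in the DMEM libraries, and read depth is unknown. Of all 20037 genes, 43.9% and 40.9% carried an end peak in the CM libraries, and 16.8% and 28.1% in the DMEM libraries. The mean was 8502 ± 429 genes in CM and 4495.5 ± 1590 genes in DMEM (SD, n = 2 each), and the exact permutation test (two-sided) gave p = 0.333. No lower value can come from 2 libraries against 2. A gene with a peak in CM and none in DMEM therefore shows a call at the authors' threshold, and whether binding differed was not tested.

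At the ends of the 10 genes, MYC peaks were found in 8 in both CM libraries and in 2 in both DMEM libraries. These calls covered 39.1% and 15.9% of the whole gene set. The 8 genes were BCL2, BCL2L1, MCL1, BAX, BAK1, BID, BCL2L11 and BAD. BID and BCL2L11, both BH3-only, were bound in all 4 libraries, as were 15.9% of all genes. BCL2, BCL2L1, BAX and BAD carried peaks in the 2 CM libraries and DMEM library 2 but not in DMEM library 1. Peaks in the 2 CM libraries with 1 DMEM library were found for 12.3% of all genes. MCL1 and BAK1 were bound in CM only, meaning both CM libraries and neither DMEM library, as were 11.0% of all genes. Of these 8 members, 2 were also bound in both DMEM libraries, beside 40.6% of the 7837 genes that CM bound. PMAIP1 had peaks in CM library 2 alone, and BBC3 had no peak at an end in any library, like 54.1% of all genes, but several inside the gene.

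**Figure D1:**
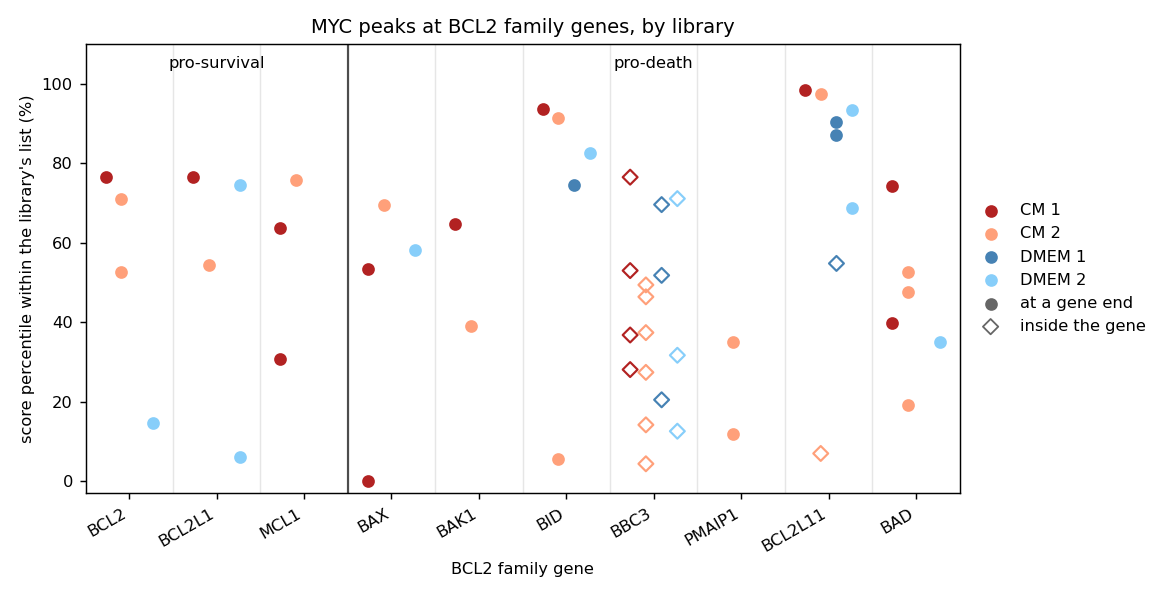
MYC peaks at the 10 BCL2 family genes. Each point is 1 peak, the y axis is its score percentile within its own library's list, colours mark the libraries of CM and DMEM, filled circles are peaks at a gene end and open diamonds are peaks inside the gene. BCL2L11 and BID carry the highest-placed peaks, BBC3 has inside peaks in every library, and MCL1, BAK1 and PMAIP1 have points for CM libraries only.

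Set by role, CM bound 3 of 3 pro-survival genes and DMEM 0 of 3. Of the pro-death genes, CM bound 5 of 7 and DMEM 2 of 7. Over all genes the shares were 39.1% in CM and 15.9% in DMEM, so a count of 0 among 3 genes in DMEM is close to the background. In DMEM library 2 taken alone, 2 of 3 pro-survival and 4 of 7 pro-death genes were bound, so the empty pro-survival count in DMEM rests on DMEM library 1, which held 0 of 3. These counts stand beside 28.1% of all genes in DMEM library 2 and 16.8% in DMEM library 1. Among the members with a peak, the median percentile of the highest-scoring end peak was 76.5 for pro-survival and 74.3 for pro-death genes in CM library 1, beside 69.3 for all genes with one. In CM library 2 it was 71.1 for 3 pro-survival and 61.1 for 6 pro-death genes, beside 65.7 for all genes with one. In DMEM library 2 it was 44.6 for 2 pro-survival and 70.3 for 4 pro-death genes, beside 60.4. In DMEM library 1 it was 82.5 for 2 pro-death genes, beside 59.8, and no pro-survival gene had an end peak. The pro-survival values lay inside the range of the pro-death values in each CM library, 63.6 to 76.5 within 53.5 to 98.4 and 54.4 to 75.8 within 35.0 to 97.4. In DMEM library 2 they reached lower, 14.7 to 74.5 beside 35.0 to 93.3 for pro-death genes. Some values of both roles come from peaks away from a start. The 14.7 in DMEM library 2 is that of a BCL2 peak 1123 bp from its annotated start. It enters the median of 44.6 there. By annotated starts, BCL2L1, at 74.5, was the only pro-survival gene bound in DMEM library 2. The 74.3 in CM library 1 is that of a far-end peak of BAD, whose start peak there stood at 39.8. The 35.0 in DMEM library 2 is a far-end peak of BAD too. The BAK1 values, 64.7 and 39.0 in the CM libraries, belong to peaks past its far end. With so few genes in each role, and with the genes chosen with earlier results known, the contrast is a description.

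**Figure D2:**
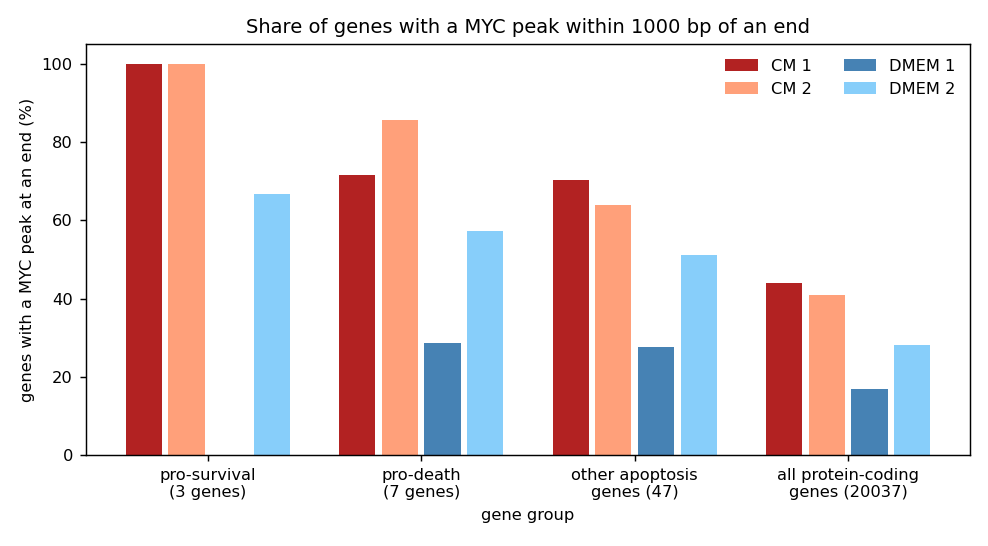
Share of genes with a MYC peak within 1000 bp of an end. Bars give the percent of genes of each group on the y axis, by library, for 3 pro-survival genes, 7 pro-death genes, 47 other apoptosis genes and all 20037 protein-coding genes. Every group has its lowest bar in DMEM library 1, where no pro-survival gene was bound.

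Since a longer list reaches further down its scores, each list was also shortened to its 4657 highest-scoring peaks, the length of the shortest. Then CM bound 3 members, BCL2, BID and BCL2L11, against 18.0% of all genes, and DMEM bound 2, BID and BCL2L11, against 13.9%. BCL2 was then the 1 CM-only member, a call made for 1.93% of all genes. MCL1 and BAX kept a peak in CM library 2 and not in CM library 1, BCL2L1 and BAD in CM library 1 and not in CM library 2. BAX and BCL2L1 also kept one in DMEM library 2. BAK1 and PMAIP1 had none left.

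Promoter sequences show where E-boxes close to the annotated starts of these genes lie against the peaks. Sequence under peaks outside the promoters was not searched. The RefSeq table of GRCh38.p14 promoters, from 250 bases before to 50 after an annotated start, held 15 promoters for 9 of the 10 members, all but MCL1. The letters CACGTG were found in promoters of 3 genes, BAX, BID and BBC3, and CACGCG, a related sequence read on either strand, in BCL2L11 alone. These are counts of genes, while the shares that follow are of promoters. A gene can have several promoters, and the match of BID lies in overlapping ones. Of 22199 promoters of protein-coding genes, 8.34% held CACGTG, 14.3% CACGCG and 65.1% the general form CANNTG, of which CACGTG is a case. Among the members, CANNTG was found in promoters of BAX, BID, BBC3 and BAD. No promoter of BCL2, BCL2L1, BAK1, PMAIP1 or BCL2L11 held it. The promoters of these 4 genes follow in the direction of the gene, with CACGTG or CACGCG in capitals, because they are the members with either match.
BAX, chr19:48954625-48954924, plus strand: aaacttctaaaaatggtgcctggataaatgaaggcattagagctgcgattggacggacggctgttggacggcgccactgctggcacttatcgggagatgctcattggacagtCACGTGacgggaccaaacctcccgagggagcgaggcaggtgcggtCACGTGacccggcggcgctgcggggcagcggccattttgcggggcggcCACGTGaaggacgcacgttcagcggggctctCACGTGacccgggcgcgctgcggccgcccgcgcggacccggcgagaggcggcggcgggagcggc
BID, chr22:17773934-17774233, minus strand: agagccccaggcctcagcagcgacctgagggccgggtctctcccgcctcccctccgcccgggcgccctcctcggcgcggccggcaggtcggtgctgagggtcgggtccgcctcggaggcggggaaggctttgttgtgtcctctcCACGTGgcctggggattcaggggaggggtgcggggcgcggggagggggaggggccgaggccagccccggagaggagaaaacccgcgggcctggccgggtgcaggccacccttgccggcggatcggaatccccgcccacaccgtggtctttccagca
BBC3, chr19:47232618-47232917, minus strand: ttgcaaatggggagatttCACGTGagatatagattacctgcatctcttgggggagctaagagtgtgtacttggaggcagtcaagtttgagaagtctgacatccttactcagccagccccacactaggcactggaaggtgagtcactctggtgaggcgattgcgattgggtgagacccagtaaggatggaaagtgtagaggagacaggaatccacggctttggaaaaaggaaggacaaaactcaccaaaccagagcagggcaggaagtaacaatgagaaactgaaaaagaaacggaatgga
BCL2L11, chr2:111120664-111120963, plus strand: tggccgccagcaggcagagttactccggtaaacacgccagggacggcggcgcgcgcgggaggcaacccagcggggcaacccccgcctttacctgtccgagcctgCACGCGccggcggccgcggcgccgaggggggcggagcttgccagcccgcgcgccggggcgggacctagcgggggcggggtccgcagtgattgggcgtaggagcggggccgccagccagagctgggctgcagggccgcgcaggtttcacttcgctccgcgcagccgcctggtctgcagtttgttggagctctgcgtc

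The BAX promoter held CACGTG 4 times, beginning 138, 93, 45 and 14 bases before the start, and 5 of all 22199 promoters (0.0225%) held 4 or more. The cutoff of 4 is the BAX count itself, and BAX is among the 5. The peaks of CM library 1, CM library 2 and DMEM library 2 covered all 4 matches, and DMEM library 1 had no peak over any. The 1 match of BID, 106 bases before its innermost annotated start, lay under a peak in all 4 libraries, as did the CACGCG of BCL2L11, 146 bases before the start. The match of BBC3, 232 bases before the start, lay under no peak in any library. Over all promoters of protein-coding genes, those with CACGTG were overlapped by a peak in 57.0% and 54.5% of cases in the CM libraries and in 28.6% and 43.1% in the DMEM libraries. Those without it were overlapped in 37.1% and 33.6% in the CM libraries and in 11.0% and 20.5% in the DMEM libraries. A match in these windows is a description of letters and not of a bound site.

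Among the pro-survival genes, BCL2, the founding member of the family, lies on chromosome 18 at 63123346 to 63320090, on the minus strand. Its end peaks lay around the start in CM. CM library 1 had 1 peak, at 63319080 to 63321307 and percentile 76.5, and CM library 2 had 2, at 63320156 to 63321346 (percentile 71.1) and 63319490 to 63319937 (52.7). DMEM library 2 had 1 narrow peak of 245 bp at percentile 14.7, and DMEM library 1 had none, with its nearest peak 408256 bp away. The DMEM library 2 peak began 802 bp beyond the outer end and 1123 bp from the annotated start, so it counted by the gene's outer end and not by the start. The peak of DMEM library 2 lay wholly within a wider peak of each CM library, upstream of the gene.

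BCL2L1, which encodes BCL-XL, lies on chromosome 20 at 31664452 to 31723963 on the minus strand and has 2 annotated starts in the table, 31723963 and 31722868. In CM, 1 peak spanned both starts, 1848 bp wide at percentile 76.5 in library 1 and 1419 bp wide at percentile 54.4 in library 2. In DMEM library 2 there were 2 peaks, 1 at each start. That at the inner start was 334 bp wide at percentile 74.5 and that at the outer start 414 bp wide at percentile 6.0. DMEM library 1 had no peak nearer than 116044 bp to the gene. BCL2L1 is the pro-survival gene with the best-placed DMEM peak, and the peak stands at the start inside the gene.

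MCL1 encodes a short-lived pro-survival protein and lies on chromosome 1 at 150574558 to 150579610. All its peaks were at the high-coordinate end. CM library 1 had 2, at percentiles 63.6 and 30.8, and CM library 2 had 1 of 2008 bp at percentile 75.8, from 150578365 to 150580372. They lie within 1000 bp of an end of the neighbouring LOC107985203 as well. Neither DMEM library had a peak there: the nearest lay 280320 bp away in DMEM library 1 and 25246 bp away in DMEM library 2. MCL1 stayed CM only under 10 of the 11 alternatives, all but the shortened lists, where CM library 2 alone kept its peak.

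Of the effectors, BAX lies on chromosome 19 at 48954875 to 48961798 on the plus strand. Its start carried a peak of 1068 bp at percentile 53.5 in CM library 1 and of 843 bp at percentile 69.5 in CM library 2. DMEM library 2 had a peak of 348 bp at percentile 58.2 over the start, and DMEM library 1 had none, its nearest peak lying 2792 bp from the gene. These peaks cover the E-boxes printed above. CM library 1 had a second peak near the far end, at percentile 0.2, among the lowest of its list.

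BAK1, on chromosome 6 at 33572552 to 33580276 on the minus strand, had no peak at its start in any library. The CM peaks lay beyond its far, low-coordinate end, 664 bp from it at percentile 64.7 in library 1 and 935 bp from it at percentile 39.0 in library 2. DMEM library 2 had a peak at percentile 61.1 that overlapped both and began 1051 bp from the end, just outside the limit. DMEM library 1 had none nearer than 40335 bp. The CM-only call of BAK1 therefore turns on the 1000 bp limit and on a site past the end of the gene.

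Among the BH3-only genes, BCL2L11, which encodes BIM, had the highest-placed peaks of all members. It lies on chromosome 2 at 111120914 to 111168445 on the plus strand. Its start peak stood at percentiles 98.4 and 97.4 in the CM libraries and at 90.4 and 93.3 in the DMEM libraries. Of the genes with an end peak, 3.06% and 4.6% stood higher in the CM libraries, and 14.4% and 9.8% in the DMEM libraries. The start peaks were 2734 and 2216 bp wide in the CM libraries, against list medians of 691 and 593 bp, and CM library 2 had a further peak of 268 bp inside the gene. In DMEM there were peaks of 1479, 647 and 223 bp in library 1 and of 605 and 505 bp in library 2. The 605 bp from 111120305 to 111120909 lay under a peak in all 4 libraries and hold the CACGCG printed above.

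BID is cut by caspase-8 and so links death receptors to mitochondria. It lies on chromosome 22 at 17734138 to 17774665 on the minus strand, with 5 annotated starts in the table. Its best peak stood at percentiles 93.6 and 91.4 in the CM libraries and at 74.6 and 82.5 in the DMEM libraries. The CM peaks, 2311 and 1187 bp wide, spanned 5 and 3 of the starts, and the DMEM peaks, 483 and 716 bp wide, the 2 innermost starts alone. The stretch covered in all 4 libraries ran from 17773763 to 17774245 and holds the E-box. BID and BCL2L11 kept end peaks in both conditions under all 11 alternatives.

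**Figure D3:**
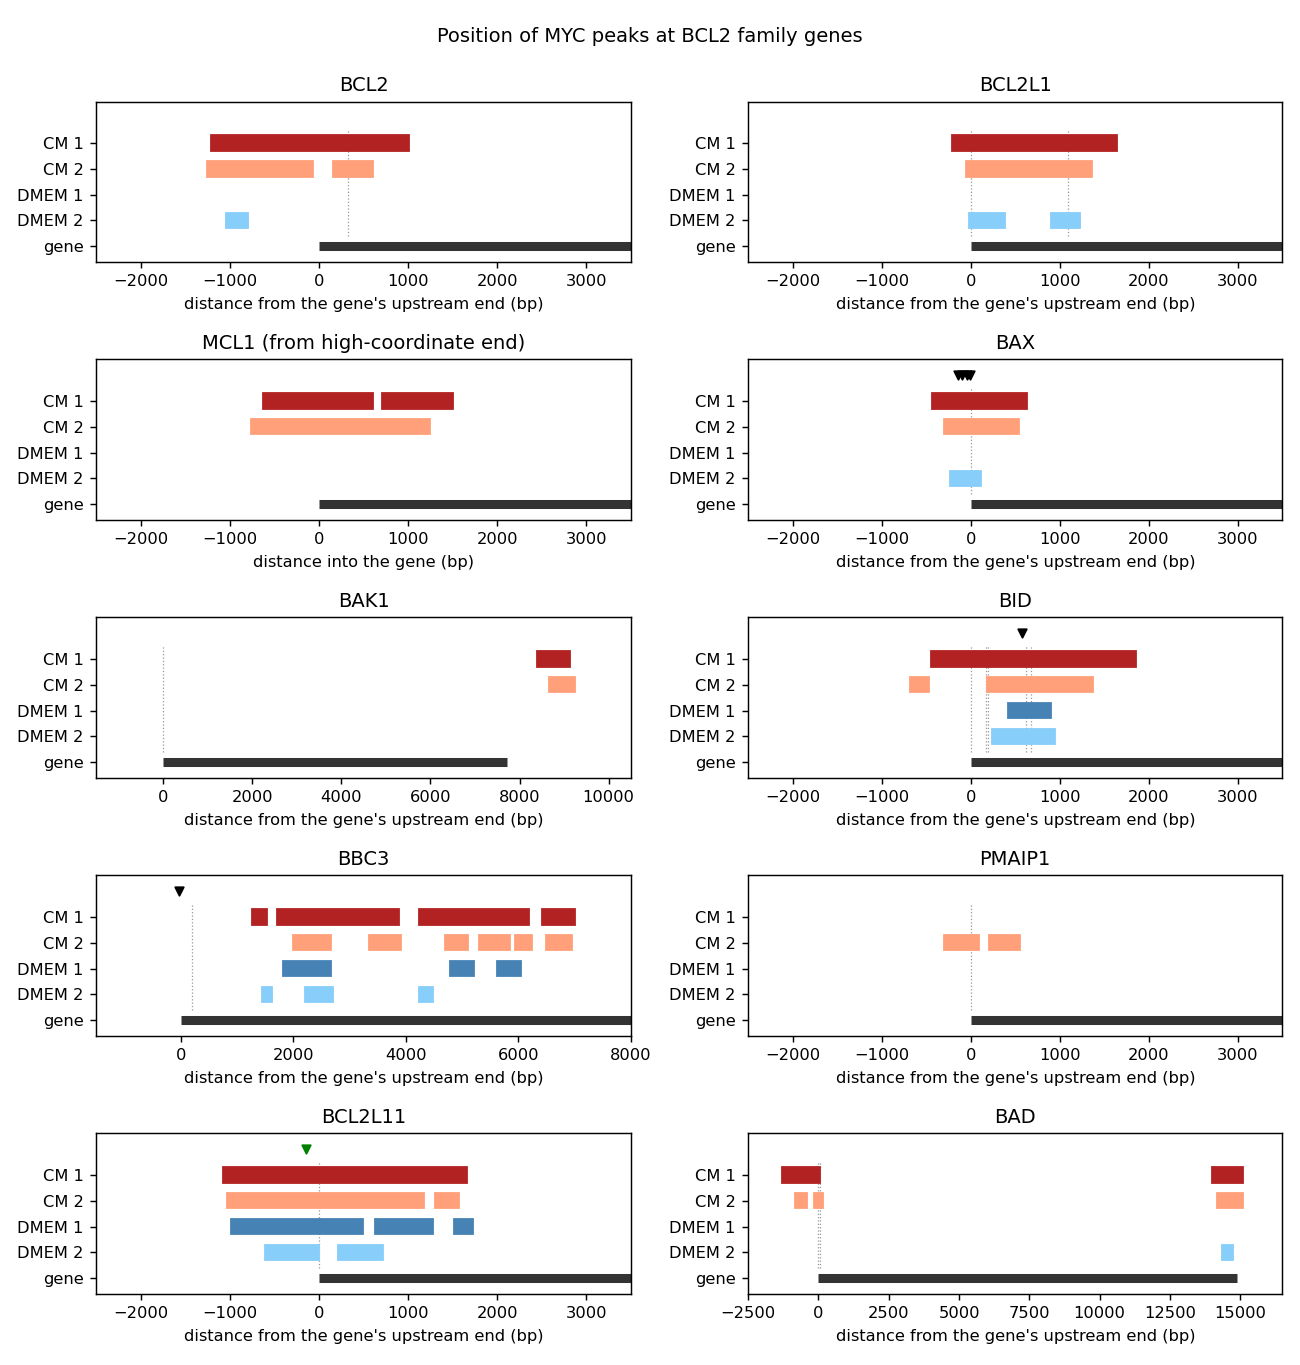
Position of the MYC peaks at each gene. The x axis is the distance in bp from the gene's upstream outer end, in the direction of the gene (for MCL1, from the high-coordinate end), bars are peaks by library with CM above DMEM, dotted lines are annotated starts, black triangles are CACGTG and the green triangle is CACGCG. Matches were sought in the promoters only. At BID the DMEM peaks sit over the 2 inner starts, at BAK1 all peaks lie past the far end, and at BBC3 all lie inside the gene; peaks over 1000 bp from a gene, such as that of DMEM library 2 near BAK1, and the second BAX peak of CM library 1, near its far end, are not drawn.

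BBC3 encodes PUMA, a BH3-only protein induced by stress signals. It lies on chromosome 19 at 47220824 to 47232860 on the minus strand. No library had a peak within 1000 bp of either end, but there were 4 and 6 peaks inside the gene in the CM libraries and 3 and 3 in the DMEM libraries. The inside peaks nearest to the start-side end lay 1256 and 1997 bp from it in the CM libraries. In the DMEM libraries they lay 1822 and 1435 bp from it. With a limit of 2500 bp, BBC3 counted as bound at an end in all 4 libraries, so its lack of end peaks turns on the 1000 bp limit. Peaks inside the gene in all 4 libraries were found in 2.29% of all genes and in 2.02% of genes of 10 to 50 kb. Having them with no end peak in any library was found in 1.01%. Of the 47 other apoptosis genes described further on, BOK, a pro-death family member, and RIPK1, a kinase of death receptor signalling, had this pattern too, named after their values were seen. By annotated starts, however, BOK and RIPK1 were bound in all 4 libraries, while BBC3 was bound in none. At least 3 inside peaks in every library, a count made after the BBC3 values were seen, were found in 2 of the 8074 genes of 10 to 50 kb (0.0248%), BBC3 included. The highest inside peak stood at percentiles 76.5 and 49.4 in the CM libraries and at 69.6 and 71.1 in the DMEM libraries. The 465 bp from 47230185 to 47230649 lay under a peak in all 4 libraries. Other peaks, further into the gene, lay near the microRNA genes MIR3190 and MIR3191.

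PMAIP1 encodes NOXA, a BH3-only protein that binds MCL1, and lies on chromosome 18 at 59899996 to 59904305. CM library 2 had 2 narrow peaks at its start, at percentiles 35.0 and 11.8. The nearest peak lay 540184 bp away in CM library 1, 2269266 bp away in DMEM library 1 and 540429 bp away in DMEM library 2. The 2 CM libraries thus differed from each other at PMAIP1, and no call was made.

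BAD, a BH3-only protein that survival kinases keep inactive by phosphorylation, lies on chromosome 11 at 64269828 to 64284704 on the minus strand. It had peaks at both ends in CM. At its start they stood at percentile 39.8 in CM library 1 and at 52.7 and 19.3 in CM library 2, and neither DMEM library had one. At the far end they stood at 74.3 and 47.7 in the CM libraries and at 35.0 in DMEM library 2. The far-end peaks also lie within 1000 bp of ends of GPR137 and PLCB3, so they cannot be assigned to BAD alone, and the start peaks overlap GPR137 too.

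By annotated starts alone, where the table gives them, CM bound 7 members and DMEM 2, against 39.8% and 16.3% of all genes. CM only then took in BCL2, MCL1 and BAD, against 11.0% of all genes. BAK1 dropped out, and BAD joined because its DMEM peak was at the far end.

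Bases under called peaks were more in CM for each gene with peaks in both conditions. At BCL2L11 they came to 2734 and 2484 bp in the CM libraries and to 2349 and 1110 bp in the DMEM libraries. At BBC3 they came to 5000 and 2973 bp in CM and to 1721 and 927 bp in DMEM, and at BID to 2311 and 1404 bp in CM and 483 and 716 bp in DMEM. Summed over members, peaks covered 20918 and 15773 bp in CM and 4553 and 4514 bp in DMEM. Whole lists covered 14551590 and 9904346 bp in CM and 2845774 and 4243881 bp in DMEM, so the lists as a whole also covered more in CM. The median member peak was 1230 and 551 bp wide in CM and 483 and 414 bp in DMEM. Over whole lists, median peak widths were 691 and 593 bp in CM and 430 and 431.5 bp in DMEM, so CM peaks were the wider ones over whole lists too. All 7 and 11 member peaks of the DMEM libraries overlapped a CM peak, as did 98.3% of all DMEM peaks of either library.

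**Figure D4:**
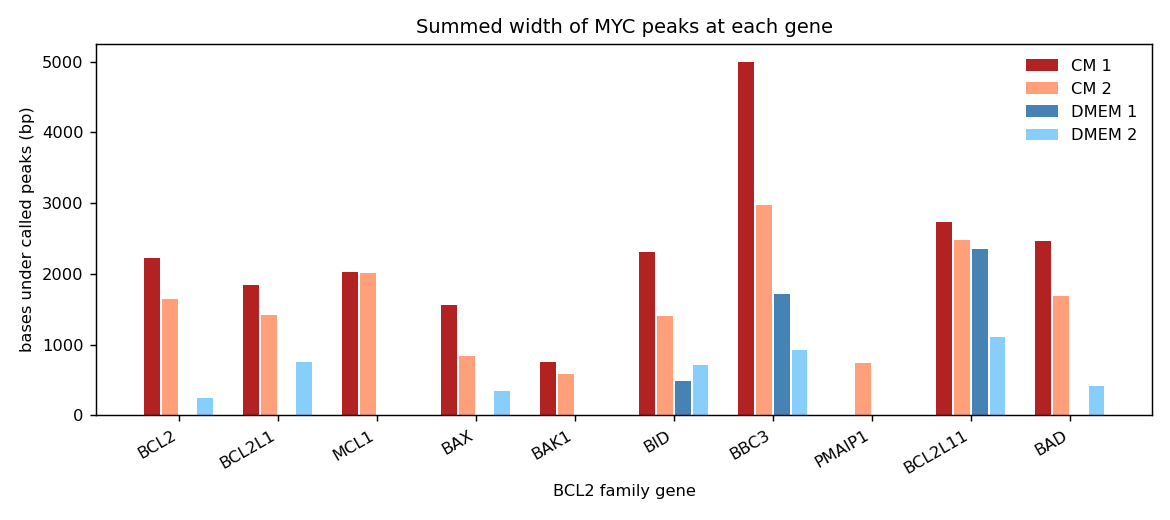
Bases under called MYC peaks at each gene. Bars give the summed width in bp of all peaks inside the gene or within 1000 bp of its ends, on an axis from 0, by library. BBC3 reaches 5000 bp in CM library 1, and only BID, BBC3 and BCL2L11 have bars for DMEM library 1.

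Another 47 apoptosis genes, in 7 lists by role, were read in the same way. Of the 47, CM bound 29 (61.7%), against 39.1% of all genes, DMEM bound 13 (27.7%), against 15.9%, and 5 were CM only (10.6%), against 11.0%. Mitochondrial channel and released factors had 6 of 8 bound in CM and 4 of 8 in DMEM. CYCS, which encodes cytochrome c, stood at percentiles 97.8 and 94.1 in CM and at 85.8 and 94.5 in DMEM. VDAC2, an outer membrane channel, and HTRA2, a protease released with cytochrome c, were bound in all 4 too, while DIABLO, an antagonist of IAP proteins, was CM only.

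The apoptosome and caspase list had 5 of 8 bound in CM and 0 of 8 in both DMEM libraries, with 3 of 8 in DMEM library 2 alone. The shares of all genes were 39.1%, 15.9% and 28.1%, so the counts in DMEM are near the background. CASP8, the initiator caspase of death receptors, was CM only at its outer ends. By annotated starts it was bound in all 4 libraries, and its highest peaks, inside the gene, stood at percentiles 98.3 and 97.2 in CM and at 96.0 and 97.6 in DMEM. Inhibitor of apoptosis genes had 5 of 6 and 2 of 6 bound, with BIRC6 and BIRC5 (survivin) in all 4 and BIRC2 CM only. In the death receptor list, 5 of 8 and 2 of 8 were bound, and those in all 4 were the TRAIL receptors TNFRSF10A and TNFRSF10B. RIPK1 had no peak at an outer end but was bound at an annotated start in all 4 libraries. Of 10 regulators of BCL2 family genes and proteins, 6 were bound in CM and 5 in DMEM. They include ATF4 and FOXO3, transcription factors known to act on BH3-only genes, at mean CM percentiles of 95.1 and 92.9. Of family members outside the 10, 1 of 3 other pro-survival genes, BCL2L2 (CM only, mean CM percentile 28.9), and 1 of 4 other pro-death genes, HRK, had peaks in both CM libraries. HRK, named after its values were seen, had a peak in DMEM library 2 too. BOK had no peak at an outer end but was bound at an annotated start in all 4 libraries, with its highest inside peak at percentiles 91.5 and 92.6 in CM and at 78.2 and 80.3 in DMEM.

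Among these 47 genes, the one nearest to each member was sought among genes bound in the same libraries, by the mean absolute difference in percentile. BCL2L11 was nearest to ATF4, with a difference of 2.3 percentile points over 4 libraries, and BID to FOXO3, with 2.6. BCL2 was nearest to BAG1 (4.9 points over 3 libraries), BCL2L1 to BIRC3 (6.6), BAD to CASP2 (7.0) and BAX to VDAC3 (10.3). MCL1 was nearest to DIABLO (11.9 points over 2 libraries) and BAK1 to BIRC2 (12.4), each out of 5 candidates. The percentiles are of each gene's highest end peak in a library, wherever it lies. For BAD they mix far-end and start peaks, and for BAK1 they are of peaks past its far end. For BCL2 they include the DMEM library 2 peak that did not count by the start.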

How the data were processed

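MYC ChIP-seq peak lists of 4 libraries were used, 2 of CM and 2 of DMEM; the 2 inputs were not analysed here. Per the submitters' processing notes, the authors used MACS2 2.1.1.20160309 for peaks, with Bowtie2 2.3.4, Picard 2.9.0, SAMtools 1.3.1 and Trim Galore 0.4.3 also named, on the build GRCh38. No source used here states the settings or the control of a list. The deposited lists give a position and a whole-number score per peak, called per library. The authors' score served to order and filter peaks of the same list. Without read counts, depth is unknown, and a library of lower depth or yield gives fewer peaks. Common lists of each condition, deposited with mean scores, served as an alternative.

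Gene ends and promoters came from RefSeq (GRCh38.p14), with an overlap of at least 1 bp. Neighbouring genes can share a peak, which then counts for both. Members, lists and tests were chosen with earlier results of these data known. All members are named, and of the other lists up to 3 genes bound in all 4 libraries and up to 3 CM-only genes, by mean CM percentile. Some genes that this rule names are not reported here. The overlap code was tested on simulated data. Alternatives were other distances (500 and 2500 bp), peak midpoints, a minimum score of 50, lists of equal length, annotated starts, common lists and leaving out each library. Python 3.11.15, pandas 2.3.3 and NumPy 2.4.6 were used.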

Additional observations from a re-analysis of the deposited data

How the results depend on the processing

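With lists of equal length, members bound in both CM libraries numbered 3 in place of 8, pro-survival ones 1 in place of 3 and pro-death ones 2 in place of 5. The share of all genes was then 18.0% in place of 39.1%. Leaving out 1 library, members bound in CM ranged from 8 to 9 and in DMEM from 2 to 6, pro-survival ones in DMEM from 0 to 2 and pro-death ones in DMEM from 2 to 4. The 9 came without CM replicate 1, where 40.9% of all genes were bound in CM, beside 39.1%. The upper values in DMEM came without DMEM replicate 1, where the share of all genes bound in DMEM was 28.1%, beside 15.9%. Members in CM only numbered 2 to 6 when 1 library was left out, 6 without DMEM replicate 2, and 6 with the authors' common lists, where the CM-only shares of all genes were 22.4% and 23.7%, beside 11.0%. They numbered 1 with peaks within 2500 bp, by peak midpoint and in lists of equal length. The CM-only shares of all genes were then 11.1%, 10.7% and 1.93%, in that order. With peaks within 2500 bp, members bound numbered 9 in CM and 3 in DMEM, BBC3 among both. The shares of all genes were then 41.3% and 17.4%. No member was bound in DMEM only under any of the 11 alternatives. The number of bound protein-coding genes was 4006.5 higher in CM, with an exact permutation p of 0.5 with the replicate number as a block, the smallest that 2 pairs allow, and 688.5 higher in lists of equal length. Counts of members came from no test, so no block could be applied to them. Unknown depth limits every absence of a peak.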
